A study of Mus musculus with 8 samples.

Results

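Heat shock proteins and their DnaJ co-chaperones were followed across 3 kinds of mouse ventricular cardiomyocyte (CM) preparation. Genes were taken by symbol, namely those beginning with Hspa, Hspb, Hspd, Hspe, Hsph, Hsp90, Dnaja, Dnajb or Dnajc, among the probes of the Illumina MouseRef-8 v2.0 BeadChip, on which a transcript is read as the fluorescence of beads carrying a probe for it. Of 16593 genes on the array, 64 had such a symbol. Of these, 53 passed the filter on low values, a detection p-value (Illumina's measure of signal over negative-control beads) under 0.05 on at least 2 of 8 arrays, as did 9803 genes in all, and 42 of the 53 were above background on every array. The groups were embryonic CMs (ECMs) from E15.5 fetal ventricle of CD1 background (n = 2), normal adult CMs (ACMs) of CD1 background (n = 3), and hypertrophic ACMs, labelled TAC and CD1, taken 7 days after an operation (n = 3). No operation was labelled for the normal ACMs, so operation and hypertrophy cannot be told apart, and 1 embryonic stage and 1 postoperative day were sampled. RNA came from enriched rather than purified CMs. No label states that replicates were separate animals, so the p-values cover the spread among these arrays only, part of which could be technical.

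Heat shock proteins are molecular chaperones that bind unfolded proteins and help them fold, travel or be degraded. HSP70 proteins bind and release clients in a cycle driven by ATP, DnaJ (HSP40) proteins deliver clients and start ATP hydrolysis, exchange factors such as HSP110 restart the cycle, and HSP90 takes over partly folded clients. HSP60 with HSP10 folds proteins in mitochondria, and small heat shock proteins hold unfolding proteins without ATP and are abundant in heart muscle, where the sarcomere is under constant load. Many cytosolic members are induced through heat shock elements bound by HSF1, and members of the endoplasmic reticulum (ER) through the ER stress element of the unfolded protein response.

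The enriched preparations differed in the levels of cell type marker genes. Within groups, arrays correlated at r = 0.965 to 0.991 across the 9803 kept genes. Between groups r reached 0.973, above the lowest value within groups. The summed level of 9 cardiomyocyte marker genes (linear normalized intensity) was 127600 to 134700 in ECMs, 182100 to 197800 in normal ACMs and 191200 to 199200 in hypertrophic ACMs. Of these 9, 6 were lower in ECMs than in normal ACMs (66.7%, beside 22.7% of all genes), Myh6 and Atp2a2 among them. The other 3 did not pass, Actn2 (0.03) among them. Sums of 10 endothelial markers were 6748 to 8641, 1218 to 3589 and 2812 to 4304 in the same order. Those of 8 fibroblast markers were 5520 to 6139, 1854 to 3253 and 6130 to 9806. Of 14 immediate early genes, which can respond to cell handling, 6 were higher in ECMs than in normal ACMs and none lower. Their shares were 42.9% and 0%, beside 26.2% and 22.7% of all genes. Their median log2 difference was 0.58, with up to 3.49 for Fosb. Against hypertrophic ACMs, 5 of these genes were higher in ECMs (35.7%, beside 23.8% of all genes). Their part in the embryonic differences was not tested. Erythroid markers reached 33550 to 33590 in ECMs against 159.8 to 1342 and 168 to 3445. In such bulk samples, fewer cells of a type and less RNA per cell cannot be told apart.

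Between ECMs and normal ACMs, most chaperone differences ran toward lower levels in the embryo. Values are log2 normalized intensities of the brightest kept probe, compared in 1 limma fit of the 3 groups, with Benjamini-Hochberg adjusted p-values over all 9803 genes and a threshold of 0.05. Of the 53 genes, 21 were lower in ECMs (39.6%, beside 22.7% of all genes), 3 were higher (5.66%, beside 26.2%) and 29 did not pass. Their median log2 difference was -0.51, while that of all genes was 0.01. Groups did not overlap with ECMs lower in 26 of the 53 (31.3% of all genes) and with ECMs higher in 5 (35% of all genes). Scaling each array to its median instead of matching the distributions moved the median of all genes to 0.52, so the split between higher and lower calls depends on the scaling. Calls in the higher direction then made up 80.3% of all calls (53.6% as reported), and 12 chaperone genes were higher and 11 lower, around a chaperone median of 0.04, still below that of all genes.

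**Figure D1:**
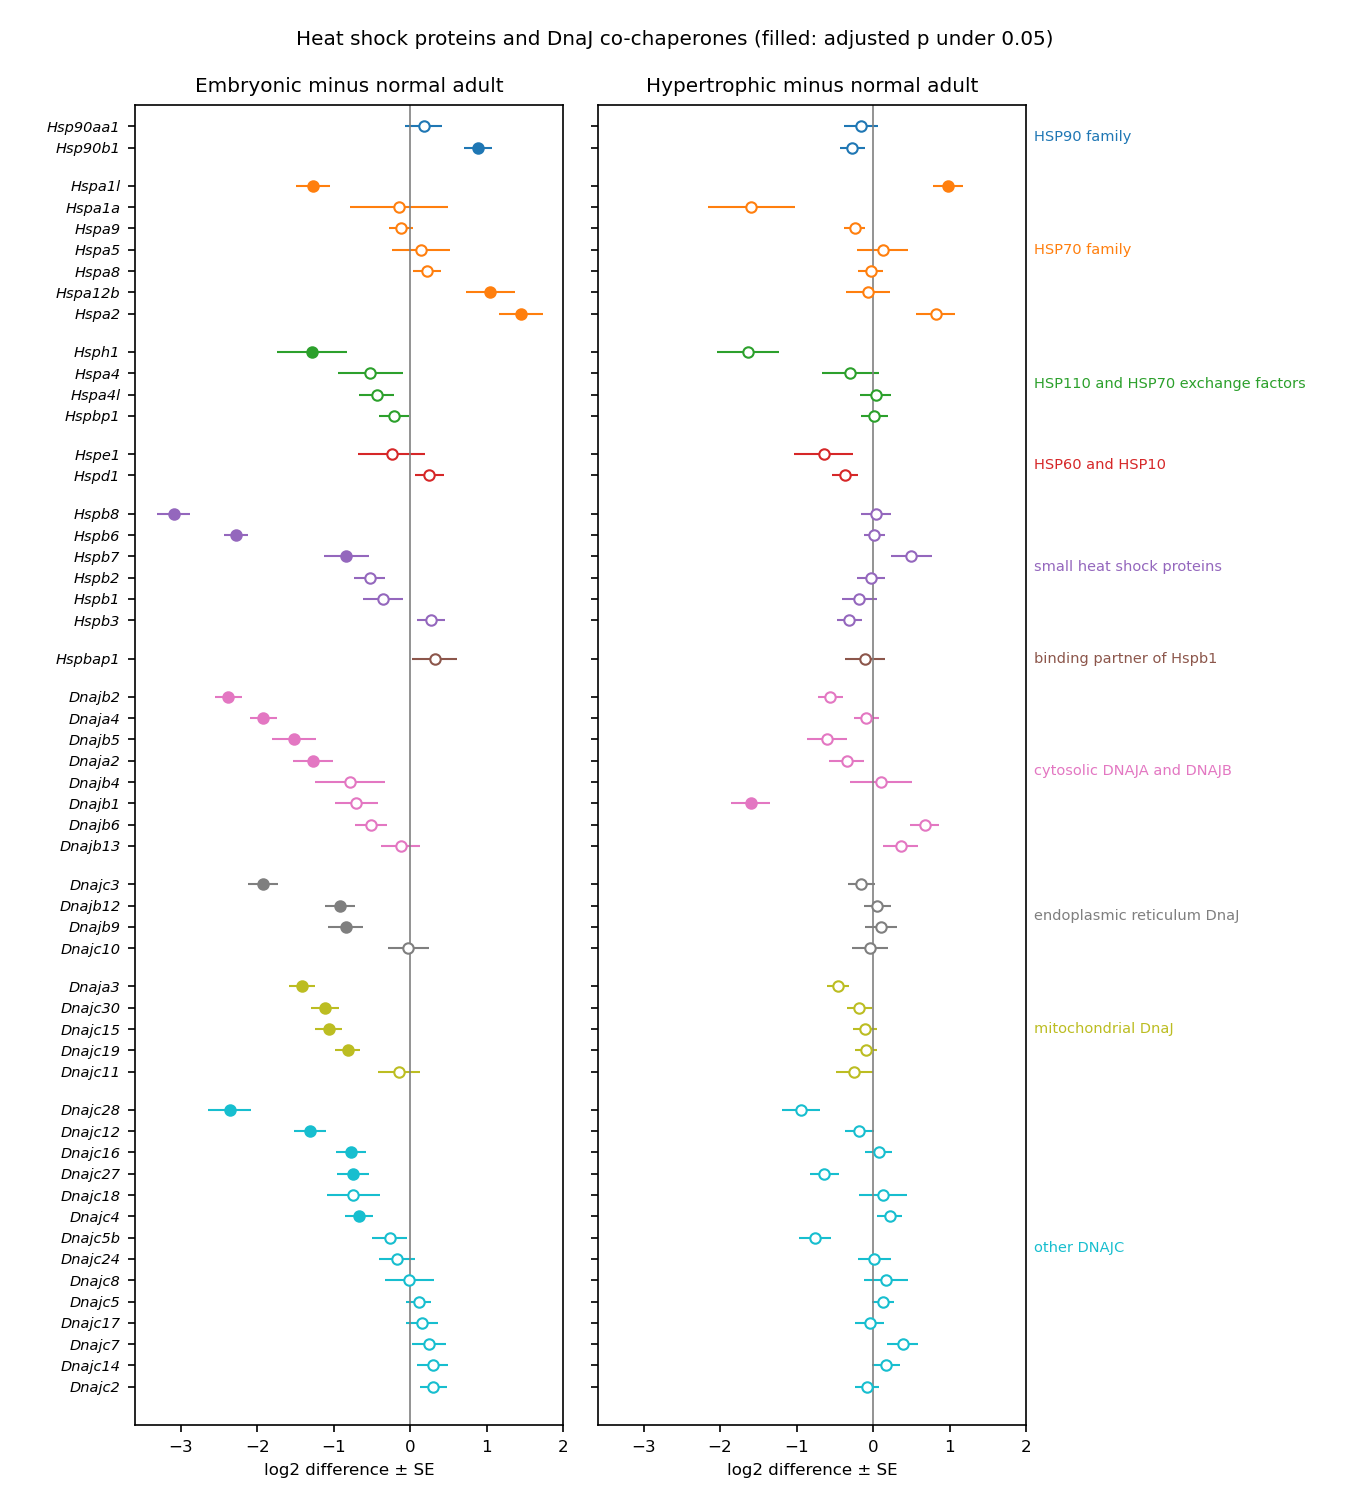
Log2 differences (horizontal axes, ± SE) of the 53 chaperone and co-chaperone genes, grouped by role, for ECMs minus normal ACMs (left) and hypertrophic minus normal ACMs (right). Filled points passed an adjusted p of 0.05: 21 lower and 3 higher on the left, and only Dnajb1 (lower) and Hspa1l (higher) on the right.

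Small heat shock proteins held the largest embryonic difference of all 53 genes. Hspb8, which works with Bag3 in the disposal of damaged sarcomere proteins, read 9.55 and 8.94 in ECMs, 12.48, 12.15 and 12.39 in normal ACMs and 12.34, 12.47 and 12.33 in hypertrophic ACMs. Both embryonic arrays were thus far below all 6 adult arrays, which lay within a narrow band. The difference from normal ACMs was -3.09 ± 0.21 (SE; limma, adjusted p = 5.19e-06), or 8.54-fold. Hspb6 (Hsp20), a small heat shock protein of muscle that is phosphorylated under beta-adrenergic stimulation, read 12.65 and 12.79 in ECMs, 15.05, 15.02 and 14.92 in normal ACMs and 15.05, 15.05 and 14.94 in hypertrophic ACMs. Again only the embryonic arrays stood apart, by -2.28 ± 0.16 (limma, adjusted p = 4.97e-06), or 4.86-fold. Before normalization its adult readings were 31302.5 to 35543.7, near the highest of any probe on an array (33979.5 to 39041.1). Differences among adult arrays, and the size of the fold, may therefore be compressed for Hspb6. Saturation of this probe was not tested. Hspb7, a small heat shock protein of heart and skeletal muscle, read 11.07 and 10.34 in ECMs, 11.89, 11.07 and 11.66 in normal ACMs and 12.05, 12.27 and 11.79 in hypertrophic ACMs. The upper embryonic value was close to the lowest normal one, and the difference of -0.84 ± 0.30 (limma, adjusted p = 0.0442) was lost in 13 of 22 alternative settings, without ECM replicate 2 (adjusted p = 0.333), ACM replicate 1 (0.118), ACM replicate 3 (0.101) or any TAC array (0.0533 to 0.0642) among them. Hspb2 (-0.53, adjusted p = 0.0564), Hspb1 (-0.36) and Hspb3 (0.27) did not pass. None of the 6 genes passed between hypertrophic and normal ACMs, with differences of -0.31 to 0.50.

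Bag3 and Cryab were also lower in ECMs. Bag3, which links Hspb8 to HSP70, read 12.04 and 11.74 in ECMs, between 13.52 and 13.74 in normal ACMs and between 13.56 and 13.63 in hypertrophic ACMs (ECMs minus normal ACMs -1.73 ± 0.17, limma, adjusted p = 4.03e-05). Cryab, the alpha-B crystallin of muscle and a relative of the small heat shock proteins, differed by -0.98 ± 0.20 (limma, adjusted p = 0.00294). Cardiomyocyte marker sums moved in the same direction, and their part in these differences was not tested.

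**Figure D2:**
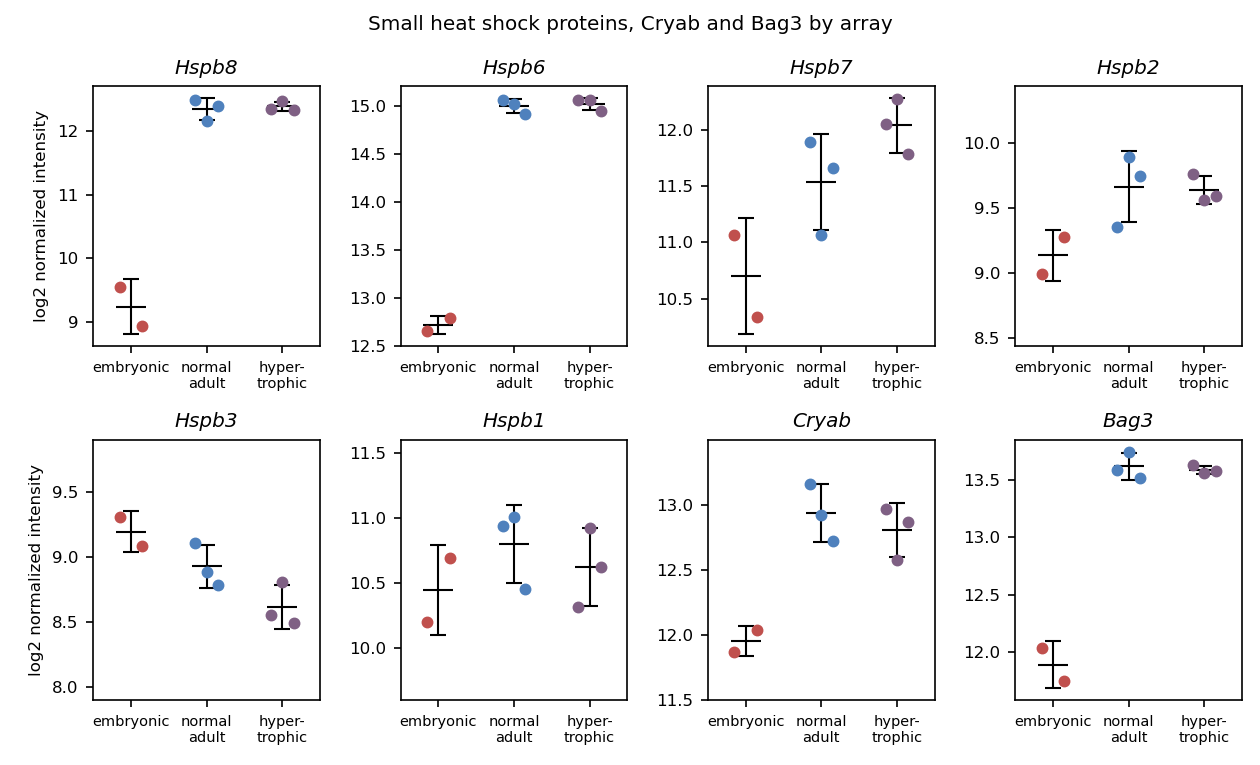
Log2 normalized intensity (vertical axes, each panel with its own range) of the 6 small heat shock proteins, Cryab and Bag3 on each array, with the group mean and SD in black. In the Hspb8, Hspb6, Cryab and Bag3 panels both embryonic points lie below all 6 adult points, and the 2 adult groups share a range.

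DnaJ proteins made up most of the remaining lower calls. Among the 8 measured cytosolic DNAJA and DNAJB genes, 4 were lower in ECMs and none higher. These were 50% and 0%, beside 22.7% and 26.2% of all genes. Dnajb2, a DnaJ protein that guides clients to the proteasome, read 7.61 and 7.76 in ECMs, 9.93, 10.14 and 10.12 in normal ACMs and 9.68, 9.53 and 9.31 in hypertrophic ACMs. Its 3 groups did not overlap, with ECMs 5.21-fold below normal ACMs (-2.38 ± 0.18, limma, adjusted p = 8.02e-06), and the step from normal to hypertrophic ACMs (-0.56, adjusted p = 0.0803) missed the threshold. Dnaja4 read 8.28 and 8.26 in ECMs and between 9.98 and 10.39 in all adult arrays (-1.92 ± 0.18, limma, adjusted p = 3e-05). Dnajb5 (-1.52) and Dnaja2 (-1.28) were lower from dimmer probes, and 1 of the 2 embryonic Dnajb5 readings was not above background. Dnaja2 was lost with median scaling (-0.35, adjusted p = 0.303). Dnajb6, a suppressor of protein aggregation, did not pass (-0.51), and its second probe gave 0.27.

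Of the 14 other DNAJC genes with a kept probe, 5 were lower and none higher. These were 35.7% and 0%, beside 22.7% and 26.2% of all genes. Dnajc28 differed most, at 4.70 and 4.83 in ECMs, 7.48, 6.61 and 7.30 in normal ACMs and 6.51, 6.15 and 5.92 in hypertrophic ACMs. These 3 groups were fully separate, and ECMs were 5.14-fold below normal ACMs (-2.36 ± 0.28, limma, adjusted p = 0.000128), from embryonic readings just over background. Dnajc12, in humans a partner of the aromatic amino acid hydroxylases, differed by -1.32 ± 0.21 (limma, adjusted p = 0.000712) and was lost with median scaling (-0.38, adjusted p = 0.135). Dnajc16, Dnajc27 and Dnajc4 differed by -0.67 to -0.78 and were each lost without an embryonic array, Dnajc16 without ECM replicate 2 (adjusted p = 0.0660), and Dnajc27 and Dnajc4 without ECM replicate 1 (0.180 and 0.135). With median scaling these 3, and Dnajb12 below, lay on the other side of 0 (0.15, 0.20, 0.29 and 0.03) and did not pass. A dimmer second probe of Dnajc16 gave -0.42 and did not pass (limma, adjusted p = 0.210 over all kept probes). Dnajc5, the cysteine string protein, Dnajc7 and the ribosome-associated Dnajc2 differed by 0.11 to 0.30 and did not pass.

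In the mitochondrial compartment, 4 of the 5 measured DnaJ genes were lower in ECMs (80%, beside 22.7% of all genes). Dnaja3 (Tid1), whose loss in the mouse heart leads to dilated cardiomyopathy, read 10.69 and 11.002 in ECMs, 12.21, 12.36 and 12.22 in normal ACMs and 11.77, 11.85 and 11.81 in hypertrophic ACMs. All 3 groups were separate for this gene, with ECMs 2.67-fold below normal ACMs (-1.42 ± 0.17, limma, adjusted p = 0.000118) and hypertrophic ACMs below them by a smaller step (-0.46, adjusted p = 0.116). Dnajc15 and Dnajc19, of the motor that pulls proteins across the inner membrane, differed by -1.07 ± 0.18 and -0.82 ± 0.16 (limma, adjusted p = 0.00093 and 0.00254), and Dnajc30 by -1.12 ± 0.18 (0.000766), lost with median scaling (-0.50, adjusted p = 0.0549). Much dimmer second probes of Dnaja3, Dnajc19 and Dnajc30 gave -0.11, -0.34 and -0.30. None passed (limma, adjusted p = 0.724, 0.335 and 0.394 over all kept probes), and they were above background on 2, 7 and 5 of 8 arrays. Dnajc11 (-0.15) was near background and did not pass. Pam16, from the same import motor, and Clpx and Clpp, the 2 parts of the matrix protease ClpXP, were lower in ECMs as well (-1.16, -1.80 and -1.11). In a list of mitochondrial chaperones and proteases, 7 of 12 measured genes were lower and 1, Htra2, higher (58.3% and 8.33%, beside 22.7% and 26.2% of all genes). HSP60 and HSP10, which fold proteins within mitochondria, did not follow. Hspd1 (HSP60) read 11.25 and 11.35 in ECMs, 11.30, 11.09 and 10.77 in normal ACMs and 10.78, 10.63 and 10.64 in hypertrophic ACMs, and its cofactor Hspe1 (HSP10) read 9.55 and 9.89, then 10.91, 9.70 and 9.28, then 9.79, 9.10 and 9.06. Embryonic and normal adult values overlapped for both (0.24 and -0.25, adjusted p = 0.319 and 0.669), with a wide spread among normal ACMs. Hspa9, the mitochondrial HSP70, read 13.56 and 13.41 in ECMs and between 13.56 and 13.68 in normal ACMs (-0.12, adjusted p = 0.54), while its dimmer probe gave -0.78 (adjusted p = 0.0083 over all kept probes), so no single direction can be given for it.

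Genes of the ER were divided between directions. Hsp90b1 (GRP94), the HSP90 of the ER lumen, read 12.13 and 12.33 in ECMs, 11.12, 11.57 and 11.35 in normal ACMs and 11.07, 11.18 and 10.98 in hypertrophic ACMs. Both embryonic arrays were above all adult ones, by 0.88 ± 0.19 over normal ACMs (limma, adjusted p = 0.00359), or 1.85-fold. The ER DnaJ genes went the other way, with 3 of 4 measured lower in ECMs (75%, beside 22.7% of all genes). Dnajc3 (p58IPK), a partner of the ER HSP70 and an inhibitor of the stress kinase PERK, read 5.58 and 5.33 in ECMs, 7.26, 7.67 and 7.20 in normal ACMs and 7.36, 7.10 and 7.21 in hypertrophic ACMs. The 2 adult groups overlapped, and ECMs were 3.80-fold below normal ACMs (-1.92 ± 0.20, limma, adjusted p = 5.87e-05). Dnajb12 and Dnajb9 differed by -0.92 and -0.85 (adjusted p = 0.00352 and 0.0141). Dnajb9 was lost without ECM replicate 2 (adjusted p = 0.146) and with median scaling (-0.15, adjusted p = 0.684). Dnajc10, an ER disulfide reductase, did not pass (-0.03). Hspa5 (BiP), the HSP70 of the ER, had 1 dim probe with 4.68 to 5.48 in ECMs and 4.53 to 5.54 in adult arrays, above background on 5 of 8 arrays, so that a difference was not detectable at this signal. In a list of 19 measured genes of ER folding and the unfolded protein response, 5 were higher and 5 lower (26.3% each). These shares were near those of all genes (26.2% and 22.7%), so results for this list rest on single genes. The disulfide isomerases Pdia4 and Pdia3 and the ER factor Creld2 were higher in ECMs (1.67, 1.38 and 1.26) and Derl2, of ER-associated degradation, was lower (-1.63).

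**Figure D3:**
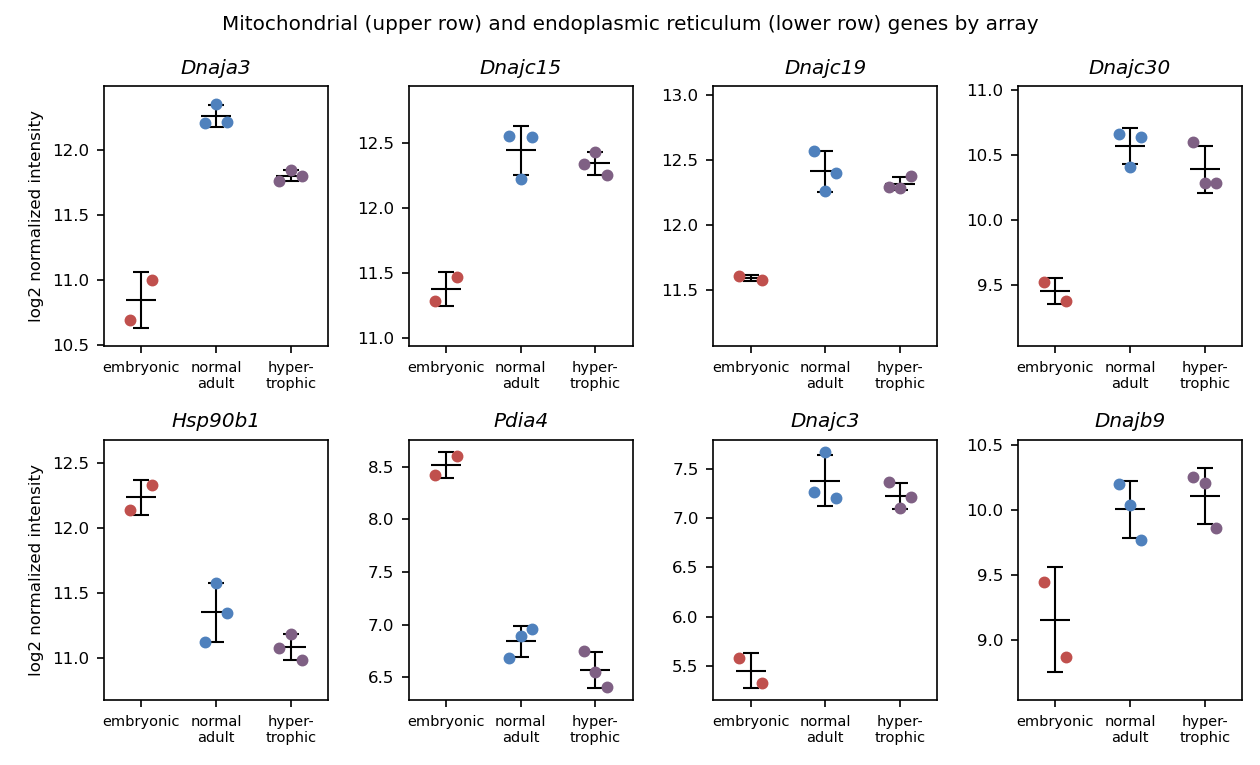
Log2 normalized intensity (vertical axes, each panel with its own range) of 4 mitochondrial DnaJ genes (upper row) and 4 ER genes (lower row) on each array, with group mean and SD in black. Embryonic points lie below the adult ones for Dnaja3, Dnajc15, Dnajc19, Dnajc30, Dnajc3 and Dnajb9 and above them for Hsp90b1 and Pdia4.

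Of 7 measured HSP70 family genes, 2 were higher and 1 lower in ECMs (28.6% and 14.3%, beside 26.2% and 22.7% of all genes). These shares were near or below those of all genes, so results for this family rest on single genes. Hspa8, the constitutive HSP70, was nearly level, at 14.59 and 14.54 in ECMs, 14.19, 14.56 and 14.28 in normal ACMs and 14.30, 14.47 and 14.17 in hypertrophic ACMs (0.22 ± 0.18, adjusted p = 0.349 by limma). Hspa2, an HSP70 best known from spermatogenesis, read 9.85 and 9.51 in ECMs, 8.63, 8.01 and 8.06 in normal ACMs and 8.86, 8.75 and 9.53 in hypertrophic ACMs. ECMs exceeded normal ACMs 2.73-fold (1.45 ± 0.29, limma, adjusted p = 0.00248), its second probe was higher too (0.87), and hypertrophic ACMs lay between (0.82, adjusted p = 0.105). Hspa12b, an HSP70 relative expressed in endothelium, read 7.997 and 7.62 in ECMs, 6.11, 6.88 and 7.30 in normal ACMs and 6.59, 6.94 and 6.57 in hypertrophic ACMs. The difference of 1.04 ± 0.32 (limma, adjusted p = 0.024) was lost without ECM replicate 1 (adjusted p = 0.150) or ECM replicate 2 (0.0509). Of 10 endothelial markers 7 were higher in ECMs (70%, beside 26.2% of all genes). Among normal ACMs, the array lowest for Hspa12b was also the lowest in the endothelial sum. The part of endothelial RNA in this result was not tested. Hsp90aa1, the inducible HSP90, was dim, at 5.80 and 5.24 in ECMs and 4.99 to 5.52 in all adult arrays, and did not pass (0.17, adjusted p = 0.592). The constitutive Hsp90ab1 was not analysed here.

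As a contrast within cytosolic folding, a list covered the CCT chaperonin and prefoldin, which fold actin and tubulin. Of its 12 measured genes, 5 were higher in ECMs and none lower (41.7% and 0%, beside 26.2% and 22.7% of all genes). Cct6a led them (1.18 ± 0.19, limma, adjusted p = 0.000694). In a list of HSF1-axis genes and cytosolic co-chaperones, 3 of 24 were higher and 7 lower (12.5% and 29.2%, beside the same shares of all genes). Cdc37l1, a relative of the HSP90 kinase adaptor Cdc37, was at -2.39 and the HSP90 co-chaperone Fkbp4 at -1.01. Hsf1 itself was not analysed here.

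Far fewer chaperone genes differed between hypertrophic and normal ACMs. Of the 53, 1 was higher and 1 lower (1.89% each, beside 3.84% and 1.83% of all genes), with a median of -0.08 beside -0.02 for all genes. Groups did not overlap in 3 genes with hypertrophic ACMs higher and in 8 with them lower (12.3% and 13% of all genes). These shares were near or below those of all genes, so the results rest on single genes.

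Dnajb1, the main stress-inducible DnaJ partner of cytosolic HSP70, was lower in hypertrophic ACMs. It read 11.44 and 11.65 in ECMs, 11.82, 12.76 and 12.18 in normal ACMs and 10.43, 10.98 and 10.54 in hypertrophic ACMs. Every hypertrophic array was below every other array, and the difference from normal ACMs was -1.60 ± 0.25 (limma, adjusted p = 0.00911), or 3.03-fold. It passed in all 22 alternative settings (adjusted p = 0.00255 to 0.0416). Hsph1 (HSP110), an exchange factor for HSP70, read 8.08 and 7.93 in ECMs, 8.36, 10.36 and 9.17 in normal ACMs and 7.74, 7.65 and 7.60 in hypertrophic ACMs. Hypertrophic values were tight and the lowest, whereas normal ACMs were spread over 2 log2 units with replicate 2 on top. The difference of -1.63 ± 0.41 just missed the threshold (limma, adjusted p = 0.0529) and passed in 6 of 22 settings, without ACM replicate 1 (adjusted p = 0.00977) or replicate 2 (0.0342) among them. ECMs minus normal ACMs was -1.29 ± 0.46 (limma, adjusted p = 0.042), lost in 13 of 22 settings, without either embryonic array (0.119 and 0.164), ACM replicate 3 (0.0674) or any TAC array (0.0600 to 0.0613) among them. Hspa1a, the inducible cytosolic HSP70, read 10.41 and 9.34 in ECMs, 8.76, 10.01 and 11.29 in normal ACMs and 7.91, 8.85 and 8.53 in hypertrophic ACMs. The adult groups overlapped, and -1.59 ± 0.57 did not pass (limma, adjusted p = 0.153), except without ACM replicate 1 (0.0368). Its probe may also read the near-identical Hspa1b.

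Of the HSF1-axis and cytosolic co-chaperone list, 2 of 24 genes were lower in hypertrophic ACMs, Fkbp4 and Ahsa1 (8.33%, beside 1.83% of all genes), and none was higher. Fkbp4 (FKBP52) read 11.98 and 11.91 in ECMs, 12.88, 12.83 and 13.14 in normal ACMs and 11.84, 11.58 and 11.62 in hypertrophic ACMs. Normal ACMs stood above both other groups, and hypertrophic minus normal ACMs was -1.27 ± 0.16 (limma, adjusted p = 0.0026). Ahsa1, which stimulates the ATPase of HSP90, read 7.73 and 7.74 in ECMs, 8.22, 8.64 and 8.52 in normal ACMs and 7.53, 7.58 and 7.58 in hypertrophic ACMs, a difference between hypertrophic and normal ACMs of -0.90 ± 0.16 (limma, adjusted p = 0.0139). Elsewhere, the mitochondrial disaggregase Clpb was lower (-1.18 ± 0.17, limma, adjusted p = 0.00596) and P4hb, a disulfide isomerase that is also a subunit of collagen prolyl hydroxylase, was higher (1.00 ± 0.17, limma, adjusted p = 0.0115). Hypertrophic ACMs also had more fibroblast signal, with 6 of 8 markers higher (75%, beside 3.84% of all genes). The part of fibroblast signal in these results was not tested. Of the 14 immediate early genes, Egr2 alone was higher (1.56) and none lower in this comparison (7.14% and 0%, beside 3.84% and 1.83% of all genes). Groups did not overlap in 2 of them with hypertrophic ACMs higher and in 3 with them lower (12.3% and 13% of all genes). Atf3, 1 of these 3, was at -0.93 and did not pass (limma, adjusted p = 0.0855).

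Hspa1l, an HSP70 mainly known from testis, went the other way. It read 5.51 and 5.87 in ECMs, 6.75, 7.08 and 7.05 in normal ACMs and 7.93, 8.22 and 7.68 in hypertrophic ACMs. The 3 groups were fully ordered, with normal ACMs above ECMs (ECMs minus normal ACMs -1.27 ± 0.22, limma, adjusted p = 0.0011) and hypertrophic ACMs above normal ones by 0.98 ± 0.19 (limma, adjusted p = 0.023), or 1.97-fold. The embryonic step was lost with median scaling (-0.38, adjusted p = 0.208). The hypertrophic step was lost in 7 of 22 settings, without ACM replicate 1 or 3 (adjusted p = 0.0640 and 0.0532) or TAC replicate 1 or 2 (0.0555 and 0.0843) among them.

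**Figure D4:**
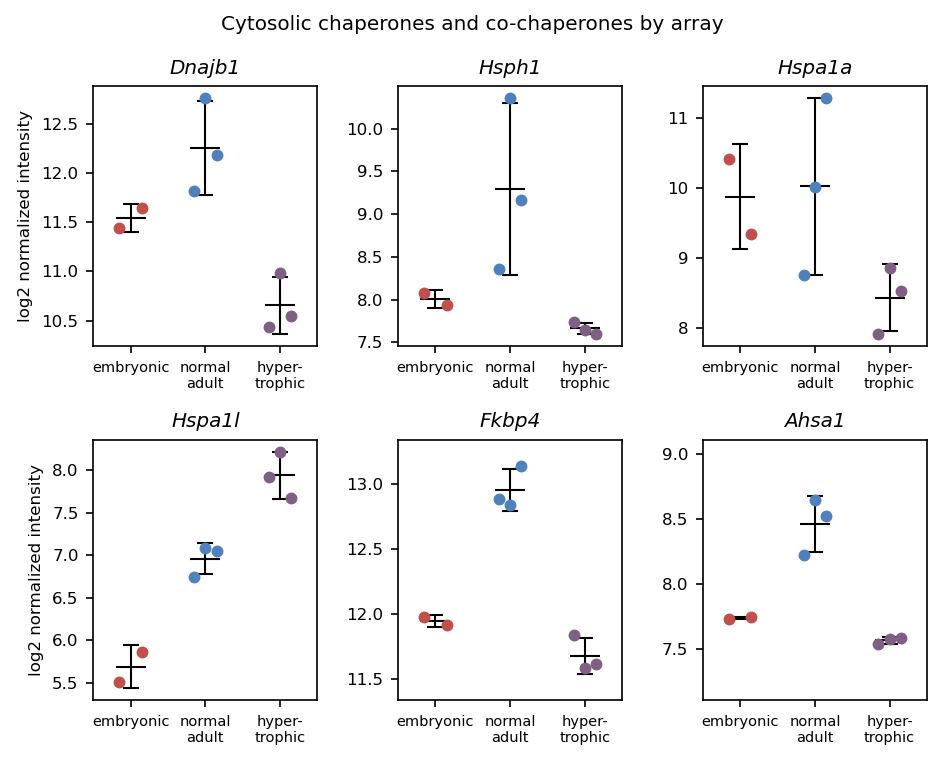
Log2 normalized intensity (vertical axes, each panel with its own range) of 4 cytosolic chaperones and 2 HSP90 co-chaperones on each array, with group mean and SD in black. Hypertrophic points are the lowest for Dnajb1, Hsph1, Fkbp4 and Ahsa1 and the highest for Hspa1l, and the normal ACM points are widely spread for Hsph1 and Hspa1a.

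Set against hypertrophic ACMs, ECMs had 20 of the 53 genes lower and 5 higher (37.7% and 9.43%, beside 19.7% and 23.8% of all genes), with the same ECM arrays and TAC arrays as in the comparisons above. Groups did not overlap in 23 genes with ECMs lower and 10 with ECMs higher (30.9% and 34.9% of all genes). Of the lower genes, Hspb8 (-3.13), Hspb6 (-2.30), Hspa1l (-2.25), Dnaja4 (-1.84), Dnajb2 (-1.83), Dnajc3 (-1.77) and Dnajc28 (-1.42) passed in all 22 alternative settings. Among the higher genes, Hsp90b1 (1.15 ± 0.19, limma, adjusted p = 0.00101) did so too. Dnajb1 (0.89), Hspd1 (0.62) and Hspb3 (0.58) were lost in 7 or 8 settings, without either embryonic array (adjusted p = 0.0673 to 0.193) or TAC replicate 3 (0.0710 to 0.0907) among them, and Dnajb1 and Hspb3 also without TAC replicate 1 (0.0910 and 0.0797) and Hspd1 without TAC replicate 2 (0.0651). Hspa12b (1.11) was lost without ECM replicate 1 (0.136), TAC replicate 1 (0.0594) or TAC replicate 3 (0.0588). Dnajb6 was lower (-1.19 ± 0.21, limma, adjusted p = 0.0018), with 7.88 and 8.52 in ECMs, 8.70 to 8.73 in normal ACMs and 9.28 to 9.59 in hypertrophic ACMs, a call lost with median scaling (adjusted p = 0.149). Its second probe, above background on all 8 arrays, gave -0.28 (adjusted p = 0.258 over all kept probes). For Hspd1 too, a second probe above background on all 8 arrays gave less, 0.30 (limma, adjusted p = 0.706 over all kept probes). The Hspd1 call was also lost with the mean of the kept probes.

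Promoter letters were set beside these levels for the genes with an entry in the RefSeq promoter table (build GRCm38.p6, 52 of the 64 genes). Both strands were searched for a heat shock element of 3 units, GAANNTTCNNGAA, the 2-unit form contained in it, GAANNTTC, and the ER stress element, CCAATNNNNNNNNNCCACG. The 3-unit element was in 0.603% of 32851 promoters of equal length, or by gene in 0.662% of 27025. It was in 4 of the 52 genes (7.69%), Hspd1, Hspe1, Hsph1 and Dnajb6. The 2-unit form was in 7.86% of all promoters (9.04% by gene) and in 13 of the 52 genes (25%). By gene, it was in 5 of 19 lower in ECMs than in normal ACMs and in 6 of 20 that did not pass. The ER stress element was in 0.119% of all promoters (0.137% by gene) and in 3 of the 52 genes (5.77%). Each window was a short stretch, mostly upstream, around an annotated start. Neither Dnajb1 nor Hspa1l had an exact match in the windows searched. Elements farther away or with other letters were not searched. Such matches describe letters, not bound sites.

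The stretches below let genes with like elements and unlike embryonic levels be read together. Each is given 5′ to 3′ on the strand of its gene, with element matches in capitals. Hspb8 and Hspb6, the small heat shock proteins lowest in ECMs relative to ACMs, and Dnaja4 carried the 2-unit form, as did Hspa1a, which did not pass between ECMs and normal ACMs (-0.15 ± 0.64). Hspb8 is at chr5:116422844-116422873 (minus strand), Hspb6 at chr7:30553151-30553230 (plus), Dnaja4 at chr9:54699449-54699528 (plus) and Hspa1a at chr17:34972217-34972296 (minus).
Hspb8: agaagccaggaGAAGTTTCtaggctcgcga
Hspb6: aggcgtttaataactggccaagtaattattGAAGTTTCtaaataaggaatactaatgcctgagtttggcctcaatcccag
Dnaja4: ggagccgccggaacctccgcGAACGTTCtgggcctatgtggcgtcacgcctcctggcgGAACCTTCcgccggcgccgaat
Hspa1a: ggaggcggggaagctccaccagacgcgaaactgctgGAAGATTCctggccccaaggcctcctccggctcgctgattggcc

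The 3-unit element of Hsph1, the gene with the widest spread among normal ACMs after Hspa1a in the cytosolic set plotted by array, is at chr5:149636280-149636309 (minus). That shared by Hspd1 and Hspe1, 2 genes on opposite strands with annotated starts 95 or 216 bases apart, is at chr1:55088028-55088107 (plus, the strand of Hspe1). It holds overlapping matches on both strands and lies between the starts that are 216 bases apart.
Hsph1: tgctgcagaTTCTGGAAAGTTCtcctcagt
Hspe1: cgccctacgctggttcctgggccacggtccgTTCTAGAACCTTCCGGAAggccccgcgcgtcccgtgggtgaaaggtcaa

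The 3 genes with an ER stress element were Hsp90b1, higher in ECMs, Dnajc3, lower in ECMs, and the dim Hspa5. They are at chr10:86705520-86705669 (minus), chr14:118937792-118937871 (plus) and chr2:34771990-34772069 (plus).
Hsp90b1: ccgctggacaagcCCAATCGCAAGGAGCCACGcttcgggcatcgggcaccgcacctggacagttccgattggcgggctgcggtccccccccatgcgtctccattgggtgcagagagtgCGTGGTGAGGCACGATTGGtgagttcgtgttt
Dnajc3: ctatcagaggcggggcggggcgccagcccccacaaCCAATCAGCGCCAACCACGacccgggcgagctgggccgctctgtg
Hspa5: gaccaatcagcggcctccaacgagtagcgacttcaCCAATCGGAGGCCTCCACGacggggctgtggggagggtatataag

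The 11 genes left out by the filter were Dnaja1, Dnajb3, Dnajb7, Dnajb8, Dnajc1, Dnajc5g, Dnajc6, Dnajc9, Hspa12a, Hspa13 and Hspa14. Their intensities were 76.2 to 109 before normalization, near the array medians of 92.3 to 106.7, and 6 of them were above background on no array. The remaining kept genes not described above were Hspa4, Hspa4l, Hspbp1, Hspbap1, Dnajb4, Dnajb13, Dnajc5b, Dnajc8, Dnajc14, Dnajc17, Dnajc18 and Dnajc24. None of these 12 passed in any of the 3 comparisons.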

How the data were processed

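RNA of 2 ECM, 3 normal ACM and 3 hypertrophic ACM samples was measured, 1 array each. The authors deposited intensities per probe, extracted with GenomeStudio (version 2011 in the submitters' processing notes, 2.0 in the series text), without background subtraction or normalization, beside detection p-values. A second table the authors deposited, of background-subtracted, quantile-normalized intensities, was used as an alternative.

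With limma 3.58.1 in R 4.3.3, neqc corrected background from the detection p-values (offset 16) and quantile-normalized before taking log2, an approach that assumes like distributions across groups. Of 25697 probes, 23978 had 1 gene symbol, 0 several and 1719 none. The brightest kept probe stood for a gene, and 14 of the 53 chaperone genes had several. The 3 groups entered 1 fit (lmFit, contrasts.fit, eBayes). Steps were tested on simulated data. Python 3.11.15, pandas 2.3.3 and matplotlib 3.10.9 were used for sequences and figures.

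The chaperone genes, their roles, 6 pathway lists and 7 marker lists were chosen with earlier results of these data known. Array-by-array values were given for genes past the threshold with a log2 difference of at least 1 and for a set of main chaperones, and up to 4 genes of a pathway list per comparison by smallest p. Some further values were added after they were seen. No source used here gave the chip an array lay on, so no chip effect was modelled. The number of arrays limits the precision.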

Additional observations from a re-analysis of the deposited data

How the results depend on the processing

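There were 22 alternatives. In ECMs against normal ACMs, median scaling gave 12 chaperone genes higher and 11 lower, 42 and 7 pathway list genes, and 4561 and 1117 of all genes. In ECMs against hypertrophic ACMs it gave 15 and 12, 43 and 5, and 4333 and 1025 (80.9% of calls higher, 54.7% as reported). In hypertrophic against normal ACMs it gave 80 of all genes lower (81.2% of calls higher, 67.7% as reported). The chaperone genes called in all 22 alternatives were Hspa2 of the 3 higher and 9 of the 21 lower in ECMs than in normal ACMs (Hspb6, Hspb8, Dnaja4, Dnajb2, Dnajb5, Dnajc3, Dnaja3, Dnajc15 and Dnajc28). Of all chaperone genes called as reported, only Dnajb12, Dnajc16, Dnajc27 and Dnajc4 changed sign under an alternative, in ECMs against normal ACMs with median scaling (0.03, 0.15, 0.20 and 0.29, none past the threshold).

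Hypertrophic against normal ACMs gave 2 chaperone genes higher without background correction or with probe means, and 0 with the authors' table, an adjusted p under 0.01 or a log2 difference of at least 1. It gave 3 lower without background correction, with an offset of 50, a variance trend or array weights, and 2 with cyclic loess or the stricter filter. Fitting only the 2 groups gave 229 higher and 71 lower of all genes. ECMs against hypertrophic ACMs gave 3 chaperone genes higher with the authors' table. At an adjusted p under 0.01, 138 and 23 of all genes and 1 pathway list gene higher remained past the threshold in hypertrophic against normal ACMs, 9 pathway list genes were higher in ECMs than in normal ACMs, and 11 pathway list genes and 1 chaperone gene were higher in ECMs than in hypertrophic ACMs. With a log2 difference of at least 1, all genes numbered 1676 and 1370 (ECMs against normal ACMs), 62 lower (hypertrophic against normal) and 1413 and 1183 (ECMs against hypertrophic), pathway list genes 7 and 13, then 7 and 7 in the 2 embryonic comparisons, and chaperone genes 2 and 10 in the last.

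Leaving out each array in turn, chaperone genes higher and lower ranged over 2 to 3 and 18 to 22 (ECMs against normal ACMs), 0 to 1 and 1 to 3 (hypertrophic against normal) and 1 to 6 and 15 to 21 (ECMs against hypertrophic). Pathway list genes ranged over 7 to 19 and 15 to 21, 1 to 3 and 2 to 3, and 11 to 20 and 10 to 16. All genes ranged over 1707 to 2628 and 1588 to 2296, 176 to 402 and 49 to 181, and 1440 to 2446 and 1280 to 2085. A lone embryonic array was then assumed to vary like the other groups.

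Same-numbered samples shared only a number (correlation of their deviations -0.104 to 0.126). With the replicate number as a block, chaperone genes higher and lower were 3 and 24, 1 and 1, and 4 and 23. Embryonic values rest on 2 arrays, and genes near background, Hspa5 and Hsp90aa1 among them, could not show small differences.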
